A study of Mus musculus with 8 samples.

Results

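The 34 genes described here encode the enzymes that build fatty acids, attach them to coenzyme A and oxidise them, and they were followed in mouse CD4+ T cells with and without Rora, the gene of the nuclear receptor RORα. The genes were chosen by name, 11 for synthesis, 4 for activation and 19 for oxidation, and all 34 were found in all 8 libraries among 54185 genes shared by the count tables. Knockout (KO) cells were Cd4_cre Rora_fl/fl, in which Cre under the control of Cd4 acts throughout the αβ T cell lineage, and control (WT) cells were Rora_fl/fl, so both genotypes carried the floxed alleles and only KO cells carried Cre. For colitis, Tcrbd-/- recipients were given naive KO or WT CD4+ T cells; such mice have no T cells of their own but keep B cells and innate cells. The colon yielded CD4+ T cells 6 weeks later, as 2 KO and 2 WT libraries. Th17 cells were made in culture from naive CD4+ T cells over 4 days of stimulation through CD3 and CD28, either with IL-6+IL-1β+IL-23 or with TGF-β+IL-6, and each mix had 1 KO and 1 WT library. All 8 samples had 2 hours of PMA and ionomycin, which trigger T cell activation, ahead of RNA extraction. Whether the 2 colon libraries of a genotype came from separate mice is not stated by the labels, nor are the mice's age and sex. Colon p-values therefore measure only the spread between libraries, which may be technical. Culture had 1 library per genotype and mix. Its p-values rest on how far the effects of mix and genotype depart from adding up, not on repeat libraries.

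Fatty acids are made in the cytosol, where Acly releases acetyl-CoA from citrate, Acaca carboxylates it, Fasn joins the carbon units into palmitate, and desaturases and elongases reshape the chain. Acyl-CoA synthetases of the Acsl family then charge the acid with coenzyme A for membrane lipids, storage or breakdown. Breakdown takes place mostly in mitochondria: the carnitine shuttle carries acyl groups in, a cycle of dehydrogenase, hydratase, dehydrogenase and thiolase shortens them, and electron transfer flavoprotein passes the electrons on. In T cells, effector Th17 differentiation is known for its reliance on new fatty acid synthesis, and oxidation is more often linked to regulatory and memory cells.

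The libraries held 13176752 to 15922696 counts, of which the 34 genes took 0.196% and 0.198% in KO colon, 0.191% and 0.181% in WT colon, and 0.392% to 0.437% in culture. Rora itself was at 133 and 149 CPM (counts scaled to library size, with TMM correction for composition) in KO colon against 252 and 290.4 CPM in WT colon. In culture it was at 59.0 CPM in KO against 152 CPM in WT cells with IL-6+IL-1β+IL-23, and at 189 CPM in KO against 499 CPM in WT cells with TGF-β+IL-6. These counts cover the whole gene and not only the part that Cre removes. The T cell genes Cd3e and Cd4 were at 149.9 CPM or more in all 8 libraries. Summed epithelial markers were at 141 and 140.0 CPM in KO colon against 53.5 and 50.5 CPM in WT colon, B and plasma cell markers at 2089.0 and 2271 CPM against 597 and 584 CPM, and conventional T cell markers at 10655 and 10489 CPM against 13636 and 13196 CPM. Fibroblast markers other than Vim were at 176 and 158 CPM in KO colon against 55.7 and 45.5 CPM in WT colon. Their part in the colon differences below was not tested, and in bulk RNA fewer cells of a type cannot be told apart from less RNA per cell.

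Levels were compared between genes per transcript length, as TPM, a share of all length-corrected counts of a library without TMM scaling. Cultured cells and colon cells differed in which of these genes dominated. In KO colon the highest levels were Elovl5 at 188 ± 12.9 TPM, Acly at 186 ± 10.5 TPM and Elovl1 at 176 ± 0.435 TPM (SD, n = 2), and in WT colon Elovl1 at 202 ± 5.44 TPM, Elovl5 at 174 ± 10.4 TPM and Acly at 161 ± 10.9 TPM (SD, n = 2). Elovl1 and Elovl5 encode elongases that lengthen saturated or polyunsaturated chains, and in KO colon these 3 neighbours did not differ beyond their spread. With IL-6+IL-1β+IL-23 the order was led by Acadl, a long-chain acyl-CoA dehydrogenase, at 594 TPM in KO and 555 TPM in WT cells, ahead of the stearoyl-CoA desaturase gene Scd2 at 469.7 TPM in KO and 458 TPM in WT cells. With TGF-β+IL-6 it was led by Acly at 599 TPM in KO and 626 TPM in WT cells, and Acadl stood 8th of 34 in KO and 7th in WT cells. Acacb, the mitochondrial acetyl-CoA carboxylase, was last of the 34 in every group and never above 0.472 TPM as a group mean.

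Summed over the 19 oxidation genes, the level was 1218 TPM in KO and 1175 TPM in WT cells with IL-6+IL-1β+IL-23, against 516 TPM in KO and 541 TPM in WT cells with TGF-β+IL-6. The 11 synthesis genes summed to 1468 TPM in KO and 1412 TPM in WT cells with the first mix, against 1401 TPM in KO and 1512 TPM in WT cells with the second. That level sum held opposite shifts. Without Scd1 and Scd2 it was 955 TPM in KO and 905 TPM in WT cells, against 1260 TPM in KO and 1315 TPM in WT cells. The 4 activation genes summed to 442 TPM in KO and 433.5 TPM in WT cells, against 711 TPM in KO and 747 TPM in WT cells. The ratio of oxidation to synthesis was therefore 0.830 in KO and 0.833 in WT cells with IL-6+IL-1β+IL-23, against 0.368 in KO and 0.358 in WT cells with TGF-β+IL-6. Acadl made up 48.8% and 47.2% of the oxidation sum with IL-6+IL-1β+IL-23, in KO and WT cells, and without it the ratio was 0.425 in KO and 0.440 in WT cells against 0.310 in KO and 0.296 in WT cells. In colon the ratio with Acadl included was 0.932 and 0.968 in KO against 0.894 and 0.905 in WT libraries. Without Acadl it was 0.714 and 0.726 in KO against 0.693 and 0.689 in WT libraries.

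**Figure D1:**
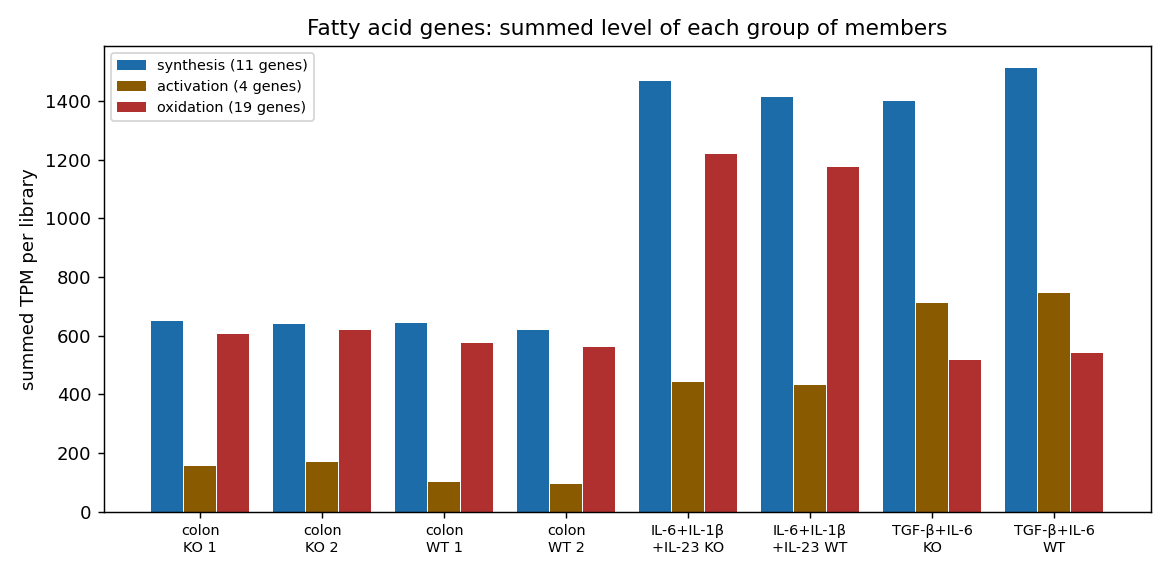
Summed TPM (y axis) of the synthesis, activation and oxidation genes in each of the 8 libraries (x axis), with 1 bar per group of genes and no averaging. Oxidation sums with IL-6+IL-1β+IL-23 were 1218 TPM (KO) and 1175 TPM (WT), against 516 TPM (KO) and 541 TPM (WT) with TGF-β+IL-6. Synthesis sums were between 1401 and 1512 TPM in all 4 cultured libraries, but lower with IL-6+IL-1β+IL-23 once Scd1 and Scd2 were left out.

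The stretches upstream of 5 genes are printed because those genes carry the differences described below: Acadl and Hadhb rose with IL-6+IL-1β+IL-23, Acly and Fasn fell with it, and Acsl3 was higher in KO colon. Each shows the 250 bases before the RefSeq start site on build GRCm38.p6, 5′ to 3′ on the gene's strand. RefSeq windows were found for 29 of the 34 genes; Scd1, Scd2, Fads1, Acaa2 and Decr1 had none. Capitals mark GC boxes (GGGCGG or its complement CCGCCC) in Acadl, Hadhb and Acsl3, the nuclear receptor core site AGGTCA in Acly, and CCAAT boxes (CCAAT or ATTGG) in Fasn. Not every match is in capitals: 4 GC boxes in the Acly window and 1 CCAAT box in the Acsl3 window are in lower case.
Acadl, chr1:66863310-66863559, minus strand: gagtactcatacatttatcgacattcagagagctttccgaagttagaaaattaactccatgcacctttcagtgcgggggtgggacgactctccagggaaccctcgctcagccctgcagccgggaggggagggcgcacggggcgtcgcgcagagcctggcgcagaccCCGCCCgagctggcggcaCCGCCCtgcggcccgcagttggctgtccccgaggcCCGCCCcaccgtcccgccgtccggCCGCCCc
Hadhb, chr5:30155003-30155252, plus strand: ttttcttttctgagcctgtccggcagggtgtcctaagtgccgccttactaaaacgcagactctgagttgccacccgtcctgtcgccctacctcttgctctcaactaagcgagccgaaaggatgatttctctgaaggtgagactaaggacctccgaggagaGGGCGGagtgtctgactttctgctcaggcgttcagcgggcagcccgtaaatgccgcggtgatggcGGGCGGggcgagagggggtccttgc
Acly, chr11:100528001-100528250, minus strand: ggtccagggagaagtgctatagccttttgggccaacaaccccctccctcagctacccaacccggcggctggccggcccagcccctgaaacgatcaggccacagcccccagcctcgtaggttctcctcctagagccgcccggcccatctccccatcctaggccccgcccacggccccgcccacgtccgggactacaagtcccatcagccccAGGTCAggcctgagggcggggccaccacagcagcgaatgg
Fasn, chr11:120824548-120824797, minus strand: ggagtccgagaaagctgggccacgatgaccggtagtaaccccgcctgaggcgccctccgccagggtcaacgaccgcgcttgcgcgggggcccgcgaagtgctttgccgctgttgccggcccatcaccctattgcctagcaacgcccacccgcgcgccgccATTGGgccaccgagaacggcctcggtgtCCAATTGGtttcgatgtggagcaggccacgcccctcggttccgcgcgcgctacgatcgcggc
Acsl3, chr1:78657575-78657824, plus strand: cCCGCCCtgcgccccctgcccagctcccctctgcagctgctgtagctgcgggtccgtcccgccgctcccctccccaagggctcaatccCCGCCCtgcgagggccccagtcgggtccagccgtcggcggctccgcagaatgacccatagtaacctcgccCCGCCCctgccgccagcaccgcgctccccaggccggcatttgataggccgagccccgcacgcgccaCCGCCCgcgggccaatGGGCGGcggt
The Hadhb window also runs upstream of Hadha, since the start sites of that pair face away from each other 273 bases apart on chromosome 5. Searched on both strands of the windows of these 29 genes, the AGGTCA core that ROR proteins and many other nuclear receptors recognise occurred in 7 genes (24.1%), against 14.02% of all 32851 windows; they were Acly, Elovl1, Elovl6, Cpt1a, Acadm, Acadvl and Echs1. GC boxes occurred in 18 genes (62.1%) against 32.74% of windows, and CCAAT boxes in 14 genes (48.3%) against 33.85%. The sterol response element TCACNCCAC was found at Acsl1 alone of the 29, against 1.05% of windows, the E-box CACGTG at Elovl5 alone, against 6.02%, and the estrogen-related receptor element TNAAGGTCA, which contains the AGGTCA core, at none, against 1.14%. Acsl1 and Elovl1 had 2 windows each, and a match or its lack describes only these letters in this window.

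The cytokine mix was the comparison in which most of these genes differed. With IL-6+IL-1β+IL-23 relative to TGF-β+IL-6, 19 genes rose and 10 fell among 33 tested in edgeR (quasi-likelihood F-test, Benjamini-Hochberg over all genes), a share of 87.9% against 69.8% of all genes called in the same fit (35.8% higher, 34% lower). Oxidation genes accounted for 14 of the 19 rises and had a median log2 fold change of 0.83, against 0.02 over all genes tested. Synthesis genes split into 5 that rose and 5 that fell, and all 4 activation genes fell. The KO and WT pairs of libraries stood in as repeats of the mix in this fit, which has 1 residual degree of freedom. Of the 34 genes, 32 had no overlap between mixes, against 85.9% of all genes tested. Those 32 include Acacb, which was too low to be tested. By single pairs, among genes at 5 CPM or more in either library, 9 of 32 members were 2-fold higher and 3 were 2-fold lower in the KO pair (15.1% and 12.4% of all such genes). In the WT pair 10 were 2-fold higher and 3 lower (15.1% and 13.0%). Fits without the KO or the WT pair compared 1 library with 1 and took their spread from the colon libraries alone. Calls lost in those fits therefore do not measure the spread in culture.

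**Figure D2:**
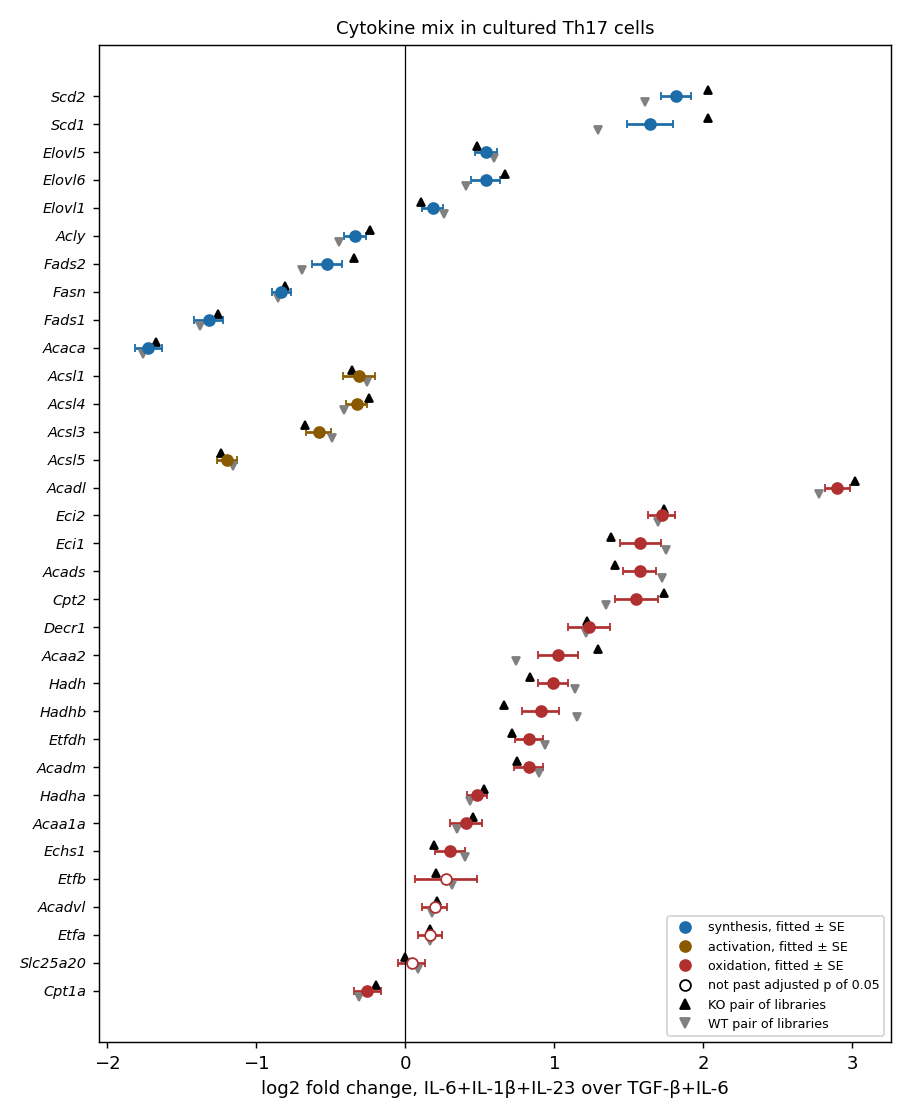
Fitted log2 fold change ± SE for each of the 33 tested genes, IL-6+IL-1β+IL-23 over TGF-β+IL-6, with triangles for the KO pair and the WT pair of libraries alone. Oxidation genes lie mostly right of 0 with Acadl farthest at 2.90, all 4 Acsl genes lie left of 0, and synthesis genes run between -1.73 for Acaca and 1.82 for Scd2.

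Among the acyl-CoA dehydrogenases, which start each turn of the cycle, Acadl was at 373 CPM in KO and 357 CPM in WT cells with IL-6+IL-1β+IL-23, against 46.1 CPM in KO and 52.0 CPM in WT cells with TGF-β+IL-6. Both libraries of the first mix were far above both of the second, and the log2 fold change was 2.90 ± 0.08 (SE; edgeR adjusted p = 7.67e-08). Acads, which takes short chains, was at 35.9 CPM in KO and 39.2 CPM in WT cells, against 13.5 CPM in KO and 11.8 CPM in WT cells. The mixes again did not overlap, with a log2 fold change of 1.57 ± 0.11 (edgeR adjusted p = 5.43e-06). Acadm, for medium chains, rose by 0.83 ± 0.10 on the log2 scale. Acadvl, for very long chains, had a log2 fold change of 0.20 ± 0.08 that was not called (edgeR adjusted p = 0.0684), and 42.9% of its exonic bases lie under Dvl2 on the opposite strand, which counting without strand could not separate; no source used here gives the strand setting.

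The enzymes that rearrange double bonds so that unsaturated chains can enter the cycle rose in all 3 cases among the 34. Eci2, an enoyl-CoA isomerase, was at 60.5 CPM in KO and 59.4 CPM in WT cells with IL-6+IL-1β+IL-23, against 18.1 CPM in KO and 18.3 CPM in WT cells with TGF-β+IL-6. The 2 genotypes were nearly level within each mix, and the log2 fold change was 1.72 ± 0.09 (edgeR adjusted p = 1.04e-06). Eci1, the mitochondrial isomerase, was at 19.8 CPM in KO and 21.3 CPM in WT cells, against 7.52 CPM in KO and 6.26 CPM in WT cells. It did not overlap between mixes either, with a log2 fold change of 1.58 ± 0.14 (edgeR adjusted p = 1.80e-05). Decr1, the dienoyl-CoA reductase, rose by 1.23 ± 0.14 on the log2 scale.

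The carnitine shuttle did not move as a unit. Cpt2, which returns acyl groups to coenzyme A inside the mitochondrion, rose by 1.55 ± 0.15 on the log2 scale (edgeR adjusted p = 2.75e-05). Cpt1a, the outer-membrane enzyme that commits acyl groups to oxidation, was at 28.9 CPM in KO and 28.1 CPM in WT cells with IL-6+IL-1β+IL-23, against 33.2 CPM in KO and 34.9 CPM in WT cells with TGF-β+IL-6. It was the lone oxidation gene to fall, by 0.26 ± 0.09 on the log2 scale (edgeR adjusted p = 0.0336), and that call held in 2 of 7 alternative analyses. Slc25a20, the translocase that exchanges acylcarnitine for carnitine, was not called at 0.04 ± 0.09.

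Hadha and Hadhb encode the α and β subunits of the mitochondrial trifunctional protein, and both rose, by 0.48 ± 0.07 and 0.91 ± 0.12 on the log2 scale. Part of the Hadhb signal is uncertain, since 19.7% of its 50-base stretches also occur in other genes, mostly the pseudogene Gm13910. Hadh, the dehydrogenase for short chains, rose by 0.99 ± 0.10, and the mitochondrial thiolase gene Acaa2 by 1.02 ± 0.13. Smaller rises were seen for the peroxisomal thiolase gene Acaa1a (0.40 ± 0.11), which shares 12.9% of its 50-base stretches with other genes and kept its call in 5 of 7 alternatives, and for the short-chain hydratase gene Echs1 (0.30 ± 0.10), whose call held in 2 of 7 alternatives. Of the electron transfer genes, Etfdh, which hands electrons to ubiquinone, rose by 0.83 ± 0.09. The subunit genes Etfa (0.17 ± 0.08) and Etfb (0.27 ± 0.21) were not called, and 44.8% of the Etfb 50-base stretches are shared, mostly with Gm45233.

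**Figure D3:**
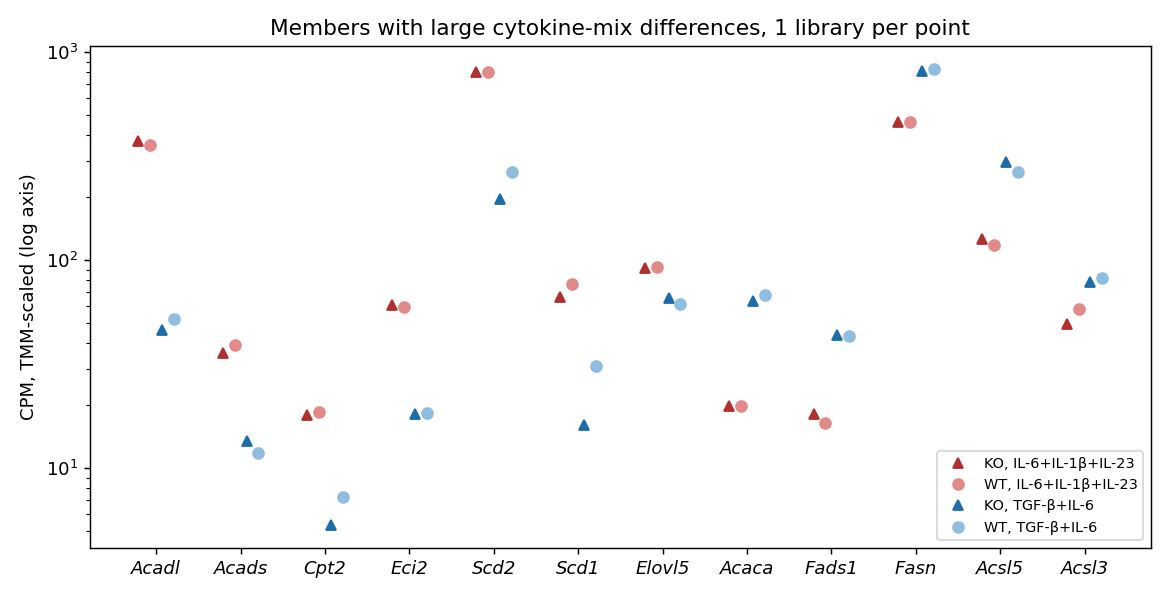
TMM-scaled CPM (log axis) of 12 genes with large differences, with 1 point per cultured library, triangles for KO and circles for WT. Within each mix the KO and WT points lie close for most genes. With TGF-β+IL-6 the widest gaps are Scd1 (16.2 CPM in KO, 31.1 CPM in WT), Scd2 (197 CPM in KO, 264 CPM in WT) and Cpt2 (5.33 CPM in KO, 7.21 CPM in WT). The mixes do not overlap for any of the 12 genes, with the narrowest gaps for Elovl5 and Acsl3.

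In the synthesis group, the genes for making the chain fell and those for reshaping it were divided. Acaca, the cytosolic acetyl-CoA carboxylase, was at 19.8 CPM in KO and 19.9 CPM in WT cells with IL-6+IL-1β+IL-23, against 63.6 CPM in KO and 68.0 CPM in WT cells with TGF-β+IL-6. The mixes did not overlap, and the log2 fold change was -1.73 ± 0.09 (edgeR adjusted p = 9.68e-07); 30.4% of the Acaca 50-base stretches are shared, mostly with Gm5182. Fasn was at 460.3 CPM in KO and 459.7 CPM in WT cells, against 808 CPM in KO and 831 CPM in WT cells. Its log2 fold change was -0.83 ± 0.07 (edgeR adjusted p = 9.65e-06). Acly fell by 0.34 ± 0.07 on the log2 scale, a call lost in the fit without the WT pair (-0.25). Acacb, at 1 to 4 counts in each cultured library, was too low to be tested.

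The desaturases moved in opposite directions. Scd2 was at 803 CPM in both the KO and the WT library with IL-6+IL-1β+IL-23, against 197 CPM in KO and 264 CPM in WT cells with TGF-β+IL-6, without overlap. Its log2 fold change was 1.82 ± 0.10 (edgeR adjusted p = 1.51e-06). Scd1, its close relative, which like Scd2 introduces the first double bond, was at 66.5 CPM in KO and 76.4 CPM in WT cells, against 16.2 CPM in KO and 31.1 CPM in WT cells. The mixes did not overlap, and Scd1 rose by 1.64 ± 0.15 on the log2 scale (edgeR adjusted p = 2.69e-05). Its log2 fold change was 1.30 without the KO pair and 2.02 without the WT pair, and neither was called. Those fits took their spread from the colon libraries, where Scd1 varied widely between replicates, as given below. Fads1 and Fads2, the front-end desaturases of polyunsaturated chains, lie on chromosome 19 as Scd1 and Scd2 do. They fell by 1.32 ± 0.09 and 0.53 ± 0.10 on the log2 scale. The Fads2 call was lost in the fit without the WT pair (-0.36). Fads1 was at 18.2 CPM in KO and 16.5 CPM in WT cells, against 43.6 CPM in KO and 43.2 CPM in WT cells, so that the genotypes differed far less than the mixes.

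The 3 elongase genes rose. Elovl5, which extends polyunsaturated chains, was at 91.3 CPM in KO and 93.0 CPM in WT cells with IL-6+IL-1β+IL-23, against 65.4 CPM in KO and 61.4 CPM in WT cells with TGF-β+IL-6. The log2 fold change of 0.54 ± 0.08 (edgeR adjusted p = 2.75e-04) equalled that of Elovl6, the elongase that takes palmitate to stearate, at 0.54 ± 0.10. Elovl1, for very long saturated chains, rose by 0.18 ± 0.07 (edgeR adjusted p = 0.0486), a call that held in 2 of 7 alternatives.

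All 4 acyl-CoA synthetase genes among the 34 fell, whereas Acsl6, a low-level relative outside the set, rose (5.27 CPM in KO and 6.25 CPM in WT cells against 0.313 CPM in KO and 0.380 CPM in WT cells). Acsl5, an enzyme of mitochondria and endoplasmic reticulum, was at 126 CPM in KO and 119 CPM in WT cells with IL-6+IL-1β+IL-23, against 296 CPM in KO and 265 CPM in WT cells with TGF-β+IL-6. It was the clearest of the 4, with a log2 fold change of -1.20 ± 0.07 (edgeR adjusted p = 1.65e-06) and no overlap. Acsl3, found on lipid droplets, fell by 0.58 ± 0.08, Acsl4, which prefers arachidonate and other polyunsaturated acids, by 0.33 ± 0.07, and Acsl1 by 0.31 ± 0.11 on the log2 scale. The Acsl1 call held in 3 of 7 alternatives. The Acsl4 call held in 6 of 7, being lost in the fit without the WT pair (-0.26).

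Genes beyond the 34 were counted in lists chosen by function. Of 29 other oxidation genes tested, 20 rose and 3 fell with IL-6+IL-1β+IL-23, where 35.8% of all genes were called higher and 34% lower; Ech1, a dienoyl-CoA isomerase, rose by 1.73 ± 0.07 and Hsd17b10, a mitochondrial short-chain dehydrogenase, by 1.99 ± 0.09, while Acad9, known also as an assembly factor of respiratory complex I, fell by 0.77 ± 0.11 on the log2 scale. Of 23 triglyceride and lipid droplet genes, 16 rose and 6 fell. Plin2, which coats lipid droplets, was at 114 CPM in KO and 139 CPM in WT cells with IL-6+IL-1β+IL-23, against 8.28 CPM in KO and 11.1 CPM in WT cells with TGF-β+IL-6, and Lipe, the hormone-sensitive lipase, rose by 2.80 ± 0.11. Gpam, which starts glycerolipid synthesis in mitochondria, fell by 1.21 ± 0.11. Of 19 other activation and transport genes 10 rose and 3 fell, with Vldlr, a lipoprotein receptor, at 4.59 ± 0.13, and of 20 other synthesis genes 9 rose and 2 fell, with Acss2, which makes acetyl-CoA from acetate, at 1.84 ± 0.17; the synthesis list was called at 55.0%, below the 69.8% of all genes. The medians of these lists were 0.79, 0.64, 0.38 and 0.06 on the log2 scale, in the order given, against 0.02 over all genes.

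Of 25 regulators of lipid genes tested, 12 rose and 12 fell (96.0% called, against 69.8% of all genes). Pparg, a nuclear receptor of fatty acid storage and oxidation, rose by 2.72 ± 0.23 (edgeR adjusted p = 1.30e-05), but only to 7.10 CPM in KO and 8.82 CPM in WT cells, against 1.07 CPM in KO and 1.33 CPM in WT cells. Ppargc1b, a coactivator of mitochondrial genes, fell by 2.42 ± 0.21 and Rxra, the partner receptor of PPARs, by 1.70 ± 0.10. Among the sterol regulators, Srebf1 rose by 0.31 ± 0.07 and the retention factor gene Insig1 by 0.42 ± 0.07, while Srebf2 fell by 0.24 ± 0.07 and the SREBP escort gene Scap by 0.82 ± 0.07 on the log2 scale (all called by edgeR). Mlycd, which degrades the malonyl-CoA that blocks Cpt1a, rose by 0.67 ± 0.18. Summed fibroblast markers were at 4030.2 CPM in KO and 4357 CPM in WT cells with IL-6+IL-1β+IL-23, against 729 CPM in KO and 673 CPM in WT cells with TGF-β+IL-6, with 89.7% and 89.6% of the first pair of sums from Vim, which T cells also express, and Col3a1 and Mmp2 at 0 in all 4 libraries. Without Vim those sums were 417 CPM in KO and 453 CPM in WT cells, against 2.88 CPM in KO and 2.97 CPM in WT cells, and their part in the mix differences was not tested. Neutrophil markers summed to 102 CPM in KO and 85.8 CPM in WT cells, against 3.95 CPM in KO and 3.29 CPM in WT cells, nearly all from Ly6g, and macrophage markers to 33.98 CPM in KO and 35.5 CPM in WT cells, against 3.07 CPM in KO and 2.47 CPM in WT cells, mostly from Cd68. S100a8, S100a9, Elane, Csf3r, C1qa, C1qb, C1qc and Lyz2 had no count in any of the 4 cultured libraries. All 5 fibroblast markers tested rose (median log2 fold change 3.16). Dendritic cell markers summed to 287.4 CPM in KO and 309.6 CPM in WT, against 39.68 and 50.18 CPM, mostly H2-Ab1 in the first pair. Endothelial markers, nearly all Pecam1, summed to 72.1 and 64.6 CPM against 17.99 and 14.68 CPM. CD8, NK and innate lymphoid markers were lower, at 10.87 and 14.02 CPM against 19.37 and 14.81 CPM. The part of these lists in the mix differences was not tested.

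No genotype difference was called for these genes in cultured cells, in a fit with 1 residual degree of freedom that called few genes at all. None of the 33 tested genes was called (0 higher, 0 lower), against 0.0286% of all genes (0.0143% higher, 0.0143% lower). With so low a share over all genes, the lack of calls does not set these genes apart or show that they were unchanged. By edgeR 3 had an unadjusted p under 0.05, against 500 of all 13981 genes tested, and DESeq2 called 0. Those 3 were Fads2 (log2 fold change -0.35 ± 0.10, unadjusted p = 0.0078), Scd1 (-0.50 ± 0.15, unadjusted p = 0.0108) and Elovl6 (-0.23 ± 0.10, unadjusted p = 0.0478), all desaturases or elongases lower in KO, with edgeR adjusted p values of 0.968 or more. Scaling to T cell genes in place of TMM called Scd1 alone of the 33 (edgeR adjusted p = 0.00202). Over all genes that scaling called 57 higher and 29 lower, against 2 higher and 2 lower with TMM. Of the 33 tested genes, 14 differed in the same direction in both mixes, a count for which no share over all genes was taken.

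Within each mix 1 KO library was set against 1 WT library, with no test. Among genes at 5 CPM or more in either library, none of 32 members differed 2-fold in either mix. Of all such genes, 0.0939% were higher and 0.146% lower in KO cells with TGF-β+IL-6, and 0.2% higher and 0.09% lower with IL-6+IL-1β+IL-23. Acacb, below that level, had 4 counts in the KO and 1 count in the WT library with TGF-β+IL-6. With TGF-β+IL-6, Scd1 had 258 counts in the KO library (exact Poisson 95% interval 227 to 291, counting error only) and 491 counts in the WT library (449 to 536). Scd2 was at 197 CPM in KO and 264 CPM in WT cells, Fads2 at 52.9 CPM in KO and 75.8 CPM in WT cells, and Elovl6 at 28.3 CPM in KO and 36.4 CPM in WT cells. These 4 were picked after their values were seen; the other desaturase and elongase genes had KO over WT log2 ratios of 0.01 (Fads1), 0.08 (Elovl1) and 0.09 (Elovl5) in that mix. With IL-6+IL-1β+IL-23, Scd2 was at 803 CPM in both and Scd1 at 66.5 CPM in KO and 76.4 CPM in WT cells. The genotype difference was not called as different between mixes for any of the 34 (0 by edgeR, against 0.0314% of all genes, 0.0126% higher and 0.0189% lower, and 0 by DESeq2), and 3 had an unadjusted p under 0.05: Scd2 (0.41 ± 0.19), Hadhb (-0.50 ± 0.22) and Acaa2 (0.54 ± 0.24). That test took its spread from the colon libraries alone.

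In colon cells Acsl3 and Acsl4 were the members that rose in KO, and 7 synthesis or oxidation genes fell. All 34 genes passed the filter on low counts, and 2 rose and 7 fell in KO relative to WT colon, a share of 26.5% against 39.5% of all genes called (19.6% higher, 19.9% lower). Fits that scaled by library totals in place of TMM called 11 higher and 1 lower, and fits that scaled to T cell genes called 14 higher and 0 lower; over all genes those scalings shifted log2 fold changes by 0.19 and 0.34 and moved the share of calls that were higher to 77.3% and 89.9%, against 49.6% with TMM. Without WT replicate 1 the counts were 6 higher and 3 lower. KO and WT values did not overlap for 25 of the 34 genes, against 70.6% of all genes.

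**Figure D4:**
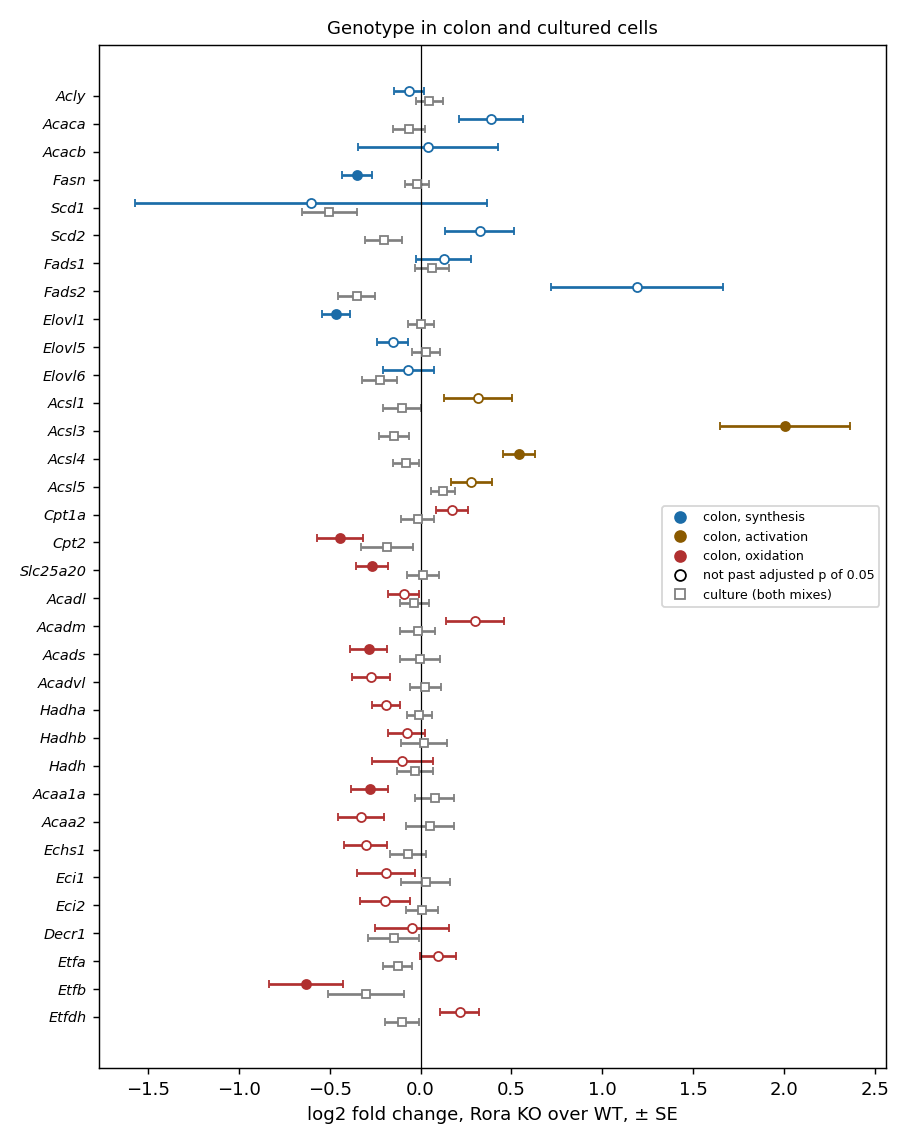
Log2 fold change of KO over WT, ± SE, for each gene in colon (circles, 2 against 2 libraries) and in culture (grey squares, both mixes in 1 fit). Acsl3 (2.01) and Acsl4 (0.54) are the filled points right of 0, 7 filled colon points lie left of 0 between -0.63 and -0.27, and no culture point was called.

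Acsl3 was at 3.47 and 2.97 CPM in KO colon against 0.487 and 1.07 CPM in WT colon, from 51 and 46 counts against 6 and 15 counts. Both KO libraries were above both WT libraries, with a log2 fold change of 2.01 ± 0.36 (edgeR adjusted p = 0.00109). Acsl4 was at 169 and 194 CPM in KO colon against 122 and 128 CPM in WT colon. It too did not overlap, with a log2 fold change of 0.54 ± 0.09 (edgeR adjusted p = 6.38e-04). The Acsl3 call held in all 10 and the Acsl4 call in all 11 alternatives that tested them. Both other scalings were among these, but they shift all genes upward, so a call of higher kept under them adds no support. Acsl5 (0.28 ± 0.11) and Acsl1 (0.32 ± 0.19) were not called. Summed over the 4 genes, the level was 157 and 171 TPM in KO colon against 100.1 and 96.3 TPM in WT colon.

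Fasn and Elovl1 fell in the synthesis group. Fasn was at 222 and 201 CPM in KO colon against 276 and 263 CPM in WT colon. The groups did not overlap, and Fasn fell by 0.35 ± 0.08 on the log2 scale (edgeR adjusted p = 0.00548), but at -0.16 with library totals and -0.01 with T cell scaling it was not called. Elovl1 was at 141 CPM in both KO libraries against 200.1 and 191 CPM in WT colon. It fell by 0.47 ± 0.08 (edgeR adjusted p = 6.95e-04), and 10 of 11 alternatives kept the call, all but T cell scaling (-0.12, edgeR adjusted p = 0.184). The other 9 synthesis genes were not called and ranged between -0.60 for Scd1 and 1.19 for Fads2; Fads2 had 14 and 23 counts in KO colon against 5 and 9 counts in WT colon.

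Scd1 varied more between replicates than between genotypes. It had 166 and 25 counts in KO colon (11.3 and 1.61 CPM) against 244 and 2 counts in WT colon (19.8 and 0.143 CPM), so the libraries numbered 1 were high and those numbered 2 low in both genotypes. Summed adipocyte markers followed the same split, at 3.47 and 0.129 CPM in KO colon against 6.01 and 0.071 CPM in WT colon, with Adipoq, the adipocyte hormone gene, at 14 and 0 counts against 12 and 0 counts. Their part in the Scd1 values was not tested. The log2 fold change of Scd1 was -0.60 ± 0.97 with all 4 libraries, 5.40 without WT replicate 1 and -2.60 without KO replicate 1, and no direction is given for this gene in colon.

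**Figure D5:**
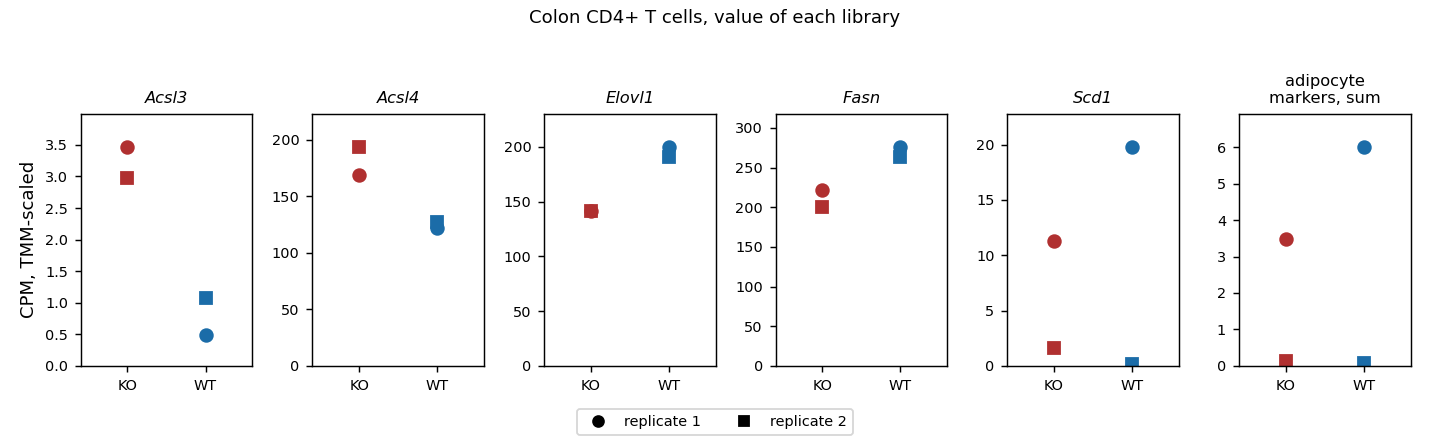
TMM-scaled CPM of 5 genes and of the summed adipocyte markers in the 4 colon libraries, KO left and WT right, circles for replicate 1 and squares for replicate 2. Acsl3 and Acsl4 are higher and Elovl1 and Fasn lower in both KO libraries, while Scd1 and the adipocyte markers are high in replicate 1 of each genotype.

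None of the 19 oxidation genes rose in KO colon and 5 fell (26.3%, against 19.9% of all genes called lower), and their median log2 fold change was -0.19, against 0.01 over all genes. Both other scalings called 0 of the 19 lower; library totals called 4 higher (Acadm, Cpt1a, Etfa and Etfdh) and T cell genes 5, with Acadl added. The oxidation sum without TMM scaling was 605.5 and 619.5 TPM in KO colon against 576 and 560.1 TPM in WT colon, so the direction for the group rests on the scaling. Cpt2 was at 12.9 and 14.1 CPM in KO colon against 18.2 and 18.6 CPM in WT colon, without overlap, and fell by 0.44 ± 0.13 on the log2 scale (edgeR adjusted p = 0.0155). The call held in 8 of 11 alternatives. Slc25a20 was at 70.0 and 63.8 CPM in KO colon against 82.9 and 78.3 CPM in WT colon, and fell by 0.27 ± 0.09 (edgeR adjusted p = 0.0315). Etfb was at 6.26 and 4.91 CPM in KO colon against 9.99 and 7.35 CPM in WT colon, and fell by 0.63 ± 0.20 (edgeR adjusted p = 0.0284), from a gene that shares much of its sequence with Gm45233 as given above. Slc25a20 kept its call in 5 and Etfb in 6 of 11 alternatives. Acads (-0.29 ± 0.10, edgeR adjusted p = 0.0459) and Acaa1a (-0.28 ± 0.10, edgeR adjusted p = 0.0477) kept theirs in 1 of 11 each, and both lay just above 0 with T cell scaling, as Slc25a20 did. Acadl, the gene with the largest difference between mixes, was at 83.3 and 91.7 CPM in KO colon against 92.1 and 94.5 CPM in WT colon and was not called (-0.09 ± 0.09). Cpt1a had a log2 fold change of 0.17 ± 0.09 and was not called, and the remaining 12 ranged between -0.33 for Acaa2 and 0.30 for Acadm without a call.

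All 8 libraries were fitted together to set the genotype difference in colon against the one in culture. Of the 34, 3 had a higher and 2 a lower effect in colon, 14.7% of the 34 against 17.3% of all genes (7.71% higher, 9.56% lower). Acsl3 led with 2.15 ± 0.32 on the log2 scale (edgeR adjusted p = 6.68e-04): it was 2.01 ± 0.36 in colon and -0.15 ± 0.08 in culture. Acsl4 differed by 0.62 ± 0.12 (edgeR adjusted p = 0.00358) and Fads2 by 1.54 ± 0.43 (edgeR adjusted p = 0.0248), with few counts of Fads2 in colon. Elovl1 differed by -0.47 ± 0.11 (edgeR adjusted p = 0.00841) and Fasn by -0.34 ± 0.11 at the threshold (edgeR adjusted p = 0.050). Without the TGF-β+IL-6 pair 1 gene was called higher and 0 lower. No oxidation gene was called in this test with all 8 libraries. By edgeR 4 of the 19 had an unadjusted p under 0.05, against 4546 of all 14957 genes tested.

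Among other lipid genes in colon, 2 of 23 triglyceride and lipid droplet genes rose and 10 fell in KO, with a median log2 fold change of -0.31 against 0.01 over all genes. These counts and those below are with TMM, under which 19.6% of all genes were called higher and 19.9% lower, and the scalings named above shift all genes upward. Dgat1, which completes triglycerides, was at 1163 and 1223 CPM in KO colon against 2109.8 and 2215 CPM in WT colon, and fell by 0.86 ± 0.08 (edgeR adjusted p = 1.29e-05). Pnpla2, the triglyceride lipase, fell by 0.54 ± 0.08, and Gpat3, a glycerol phosphate acyltransferase, rose by 1.45 ± 0.25. Of 27 other oxidation genes 1 rose and 5 fell, of 16 other synthesis genes 2 rose and 3 fell, and of 18 other activation and transport genes 3 rose and 5 fell; Slc25a1, which exports citrate for synthesis, fell by 0.60 ± 0.09. Of 26 regulators 3 rose and 9 fell. Pparg had 37 and 50 counts in KO colon against 6 and 0 counts in WT colon (edgeR adjusted p = 8.01e-04), Rxra rose by 0.73 ± 0.10, and Srebf1, which drives synthesis genes, fell by 0.27 ± 0.08. Srebf2 (-0.12 ± 0.09) and Ppargc1b (0.46 ± 0.25) were not called. In culture none of the genes in these 5 lists was called for genotype.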

How the data were processed

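RNA-seq was deposited for 8 mouse libraries. Per the submitters' processing notes, Trim Galore, Bowtie2, featureCounts, edgeR and DESeq2 were named together with build mm10, without versions or roles. The deposited values are raw read counts per gene that were not normalized, per the file headers. No source used here gives the read strand. Colon files hold 54446 Ensembl entries, of which 54409 matched GENCODE M21, and culture files 55341 symbols; 54185 genes were joined by symbol. Symbols turned into dates (27 and 26 per file) held at most 0.269% of a library and were not used.

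Counts were tested in R 4.3.3 with edgeR 4.0.16 (filterByExpr, TMM, quasi-likelihood F-test, Benjamini-Hochberg over all genes tested, threshold 0.05). Colon was fitted as 2 against 2, culture with terms for mix and genotype (1 residual degree of freedom), colon against culture over all 8 libraries. TPM used the merged exon length of each gene in GENCODE M21, which understates genes with many rare exons. Log2 ratios of single libraries used a prior count of 2 and counted 2-fold differences where either library reached 5 CPM. DESeq2 1.42.0, scaling by library totals or T cell genes, other filters, each colon library left out and a replicate block were the alternatives. In culture a pair of libraries was left out in turn, with the spread then taken from the colon libraries alone. Fits were checked on simulated counts, with the same spread for every gene and changes placed only in genes with many counts. That check does not cover genes with few counts, such as Acsl3 and Fads2 in colon. Replicate libraries were distinct, with a chi-square per gene of 5.03 in KO and 6.85 in WT colon. Poisson intervals cover counting error only.

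The members and lists were chosen with earlier results of these data known. Values per library are given for called members, at most 4 per group and direction by smallest p, and for Rora; other lists name at most 3 called genes per direction, and regulators were fixed by name. Adipoq, the Scd1 values in colon and the single-mix desaturase values were added after their values were seen.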

Additional observations from a re-analysis of the deposited data

Results flagged for a closer look

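For 5 genes the difference between KO and WT cells in colon departed from that in cultured cells, by a test of the difference itself in the fit of all 8 libraries (edgeR, adjusted p of 0.050 or less). That is 14.7% of the 34, against 17.3% of all genes in the same fit. The effect in colon minus that in culture was 2.1467 for Acsl3 and 0.6201 for Acsl4, acyl-CoA synthetase genes that rose in KO colon, and 1.5372 for Fads2, a desaturase gene, on the log2 scale. It was -0.4727 for the elongase gene Elovl1 and -0.3361 for Fasn. The Acsl3 call held in all 11 alternatives and Acsl4 in 10 of 11 (edgeR adjusted p = 0.0608 without the TGF-β+IL-6 pair). Fads2 and Elovl1 each held in 8 of 11 and Fasn in 3 of 11. Both other scalings shifted this effect upward over all genes, by 0.19 and 0.31, so a call of higher kept under them adds no support. Acsl3 and Fads2 were at 51 counts or fewer in each colon library, against 640 or more in each cultured library. Epithelial and B cell markers were higher in KO than WT colon, as given with the results, and their part in these differences was not tested.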

How the results depend on the processing

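Counts of called genes in colon moved with the scaling: 2 higher and 7 lower became 11 and 1 with library totals, and 14 and 0 with scaling to T cell genes. A filter of 5 CPM in 2 libraries left 4 lower and DESeq2 left 2 lower. With T cell scaling the log2 fold change turned to 0.28 for Acly, 0.0753 for Slc25a20, 0.25 for Acadl, 0.0560 for Acads and 0.0615 for Acaa1a; that scaling shifted all genes by 0.34. Of 21 members below 0 with TMM, 16 were above 0 with T cell scaling and 9 with library totals, those 5 among the 16. Leaving out each colon library in turn gave 2 to 6 higher and 3 to 7 lower, both extremes being without WT replicate 1 for the rise to 6 and the drop to 3. Without that library Scd1 turned to 5.40 in colon and 5.91 for colon minus culture; without KO replicate 1 these were -2.60 and -2.05. In the mix comparison, leaving out the KO or the WT pair gave 15 to 16 higher and 5 to 8 lower, and other alternatives 16 to 21 higher and 8 to 10 lower. T cell scaling called 1 of the members lower in KO culture, Scd1, and over all genes it called 57 higher and 29 lower. For colon minus culture, 3 higher and 2 lower became 7 and 0 with library totals, 11 and 0 with T cell scaling, and 1 lower with the 5 CPM filter; left-out libraries or pairs gave 1 to 4 higher and 0 to 2 lower. The cause was not tested beyond the constructions named. Whether replicate numbers pair the colon samples is not known, since no shared animal or batch is stated. The correlation of deviations was 0.153 (2 pairs), which cannot decide it. Scd1 and the adipocyte markers did split by replicate number in both genotypes. With the replicate block, 4 members were higher and 11 lower. Genes such as Acsl3 and Fads2 rest on few counts.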
